A study of Mus musculus with 8 samples.

Results

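Early pluripotency marker genes were examined in Flag CUT&Tag peak lists of mouse fibroblasts at day 3 of reprogramming. The genes are Dppa5a, Dppa2, Dppa4, Tdgf1, Utf1, Tdh, Fgf4 and Zfp42, which were taken by name, 8 of 21938 protein-coding genes in the GENCODE M21 annotation of mm10. A peak was assigned to a gene when its summit, the position with the most tags, lay in the gene body or within 50 kb of the gene's first annotated start site. By this rule 178 of 661009 peaks in the 8 lists belonged to the 8 genes. They fell into 7 loci, because Dppa2 and Dppa4 are neighbours on chromosome 16 and 12 peaks lay in both of their windows.

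CUT&Tag uses an antibody to bring the transposase Tn5 to a protein on chromatin, where it cuts and tags the DNA nearby. Here the antibody was against Flag, an epitope on a delivered transcription factor. There were 8 libraries, 1 for each of native Nanog, NanogBiD, native Oct4, Oct4BiD, native Sox2, Sox2BiD, native Nr5a2 and Nr5a2BiD. BiD, a domain of SS18 that interacts with BRG1, was fused to the N-terminus of each factor. BRG1 is the motor subunit of BAF, a complex that slides and evicts nucleosomes. All groups share the same cells and time. Per the study's methods these were MEFs from mid-gestation embryos that carry the OG2 allele, a green fluorescent reporter of Oct4 activity, and factors were delivered by retrovirus. The titles name the tagged factor alone, and which other factors the same cells received is not given in them. The lists hold no expression values, so the cell type could not be checked by markers, and a peak is not a measure of whether a gene was transcribed.

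The 8 genes are generally silent in fibroblasts and active in pluripotent cells, and several are used as early signs that the pluripotency programme has been switched on. Oct4 recognises the octamer, Sox2 recognises short CATTGT-like sequences, and in pluripotent cells the pair often bind side by side on composite sites. Enhancers 3′ of the coding sequence of Fgf4 and of Utf1 are textbook examples of such sites. Nr5a2 is an orphan nuclear receptor that binds extended half-sites and Nanog is a homeodomain factor of the same network.

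Composite sites were searched in the 8 windows as CATTGT or CTTTGT followed on the same strand, within 12 bases, by ATGCTANT. This pattern was chosen after the values were seen, and 6 sites were found, 2 in the Dppa2 window and 1 each in those of Tdgf1, Utf1, Tdh and Fgf4. The sites of Fgf4, Utf1 and Tdh are shown, and distances to summits are given below for all 6. Sequences are from GRCm38, the assembly of mm10, 5′ to 3′ on the strand of the site, and the capitals run from the SOX-type letters to the end of the octamer-type letters. The Fgf4 site is on the plus strand of chr7:144864394-144864411, the Utf1 site on the minus strand of chr7:139945681-139945695 and the Tdh site on the minus strand of chr14:63485262-63485283.

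Fgf4 composite site: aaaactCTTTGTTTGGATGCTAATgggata
Utf1 composite site: gagccgtCATTGTTATGCTAGTgaagtgc
Tdh composite site: gaagCATTGTGCCTTTGTATGCTAATgagt

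At the Fgf4 site the nearest summit was that of Sox2BiD, 63 bp away. It lay in an untranslated exon 17098 bp from the first start site of the gene, with 16 tags and a score at percentile 32.4 of that list. No other library had a summit within 3 kb of it. At the Tdh site a native Sox2 summit of 19 tags lay 19 bp away and a Sox2BiD summit of 35 tags lay 38 bp away, in intergenic sequence 23.8 kb downstream of the start. The scores were at percentiles 40.5 and 78.3. The Utf1 site had no summit nearby. The nearest was one of native Nr5a2 at 1487 bp, and the nearest Sox2BiD and Oct4BiD summits were at 4318 bp and 4435 bp. At the Dppa2 and Tdgf1 sites the nearest summits in the window were of Nr5a2BiD, at 126 bp and 5471 bp for Dppa2 and 8275 bp for Tdgf1. Sox2BiD summits were at 4140 bp, 9485 bp and 13753 bp from these sites. Native Sox2 summits were at 4144 bp and 9489 bp for Dppa2, and the Tdgf1 window held none. Of 4878 such sites in the genome, 2.58% had a Sox2BiD summit within 100 bp, 1.41% a native Sox2 summit, 1.80% an Oct4BiD summit and 0.49% a native Oct4 summit. For the Nanog and Nr5a2 libraries the shares ran from 0.43% to 0.51%. Neither Oct4 library had a summit within 100 bp of any of the 6 sites.

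**Figure D1:**
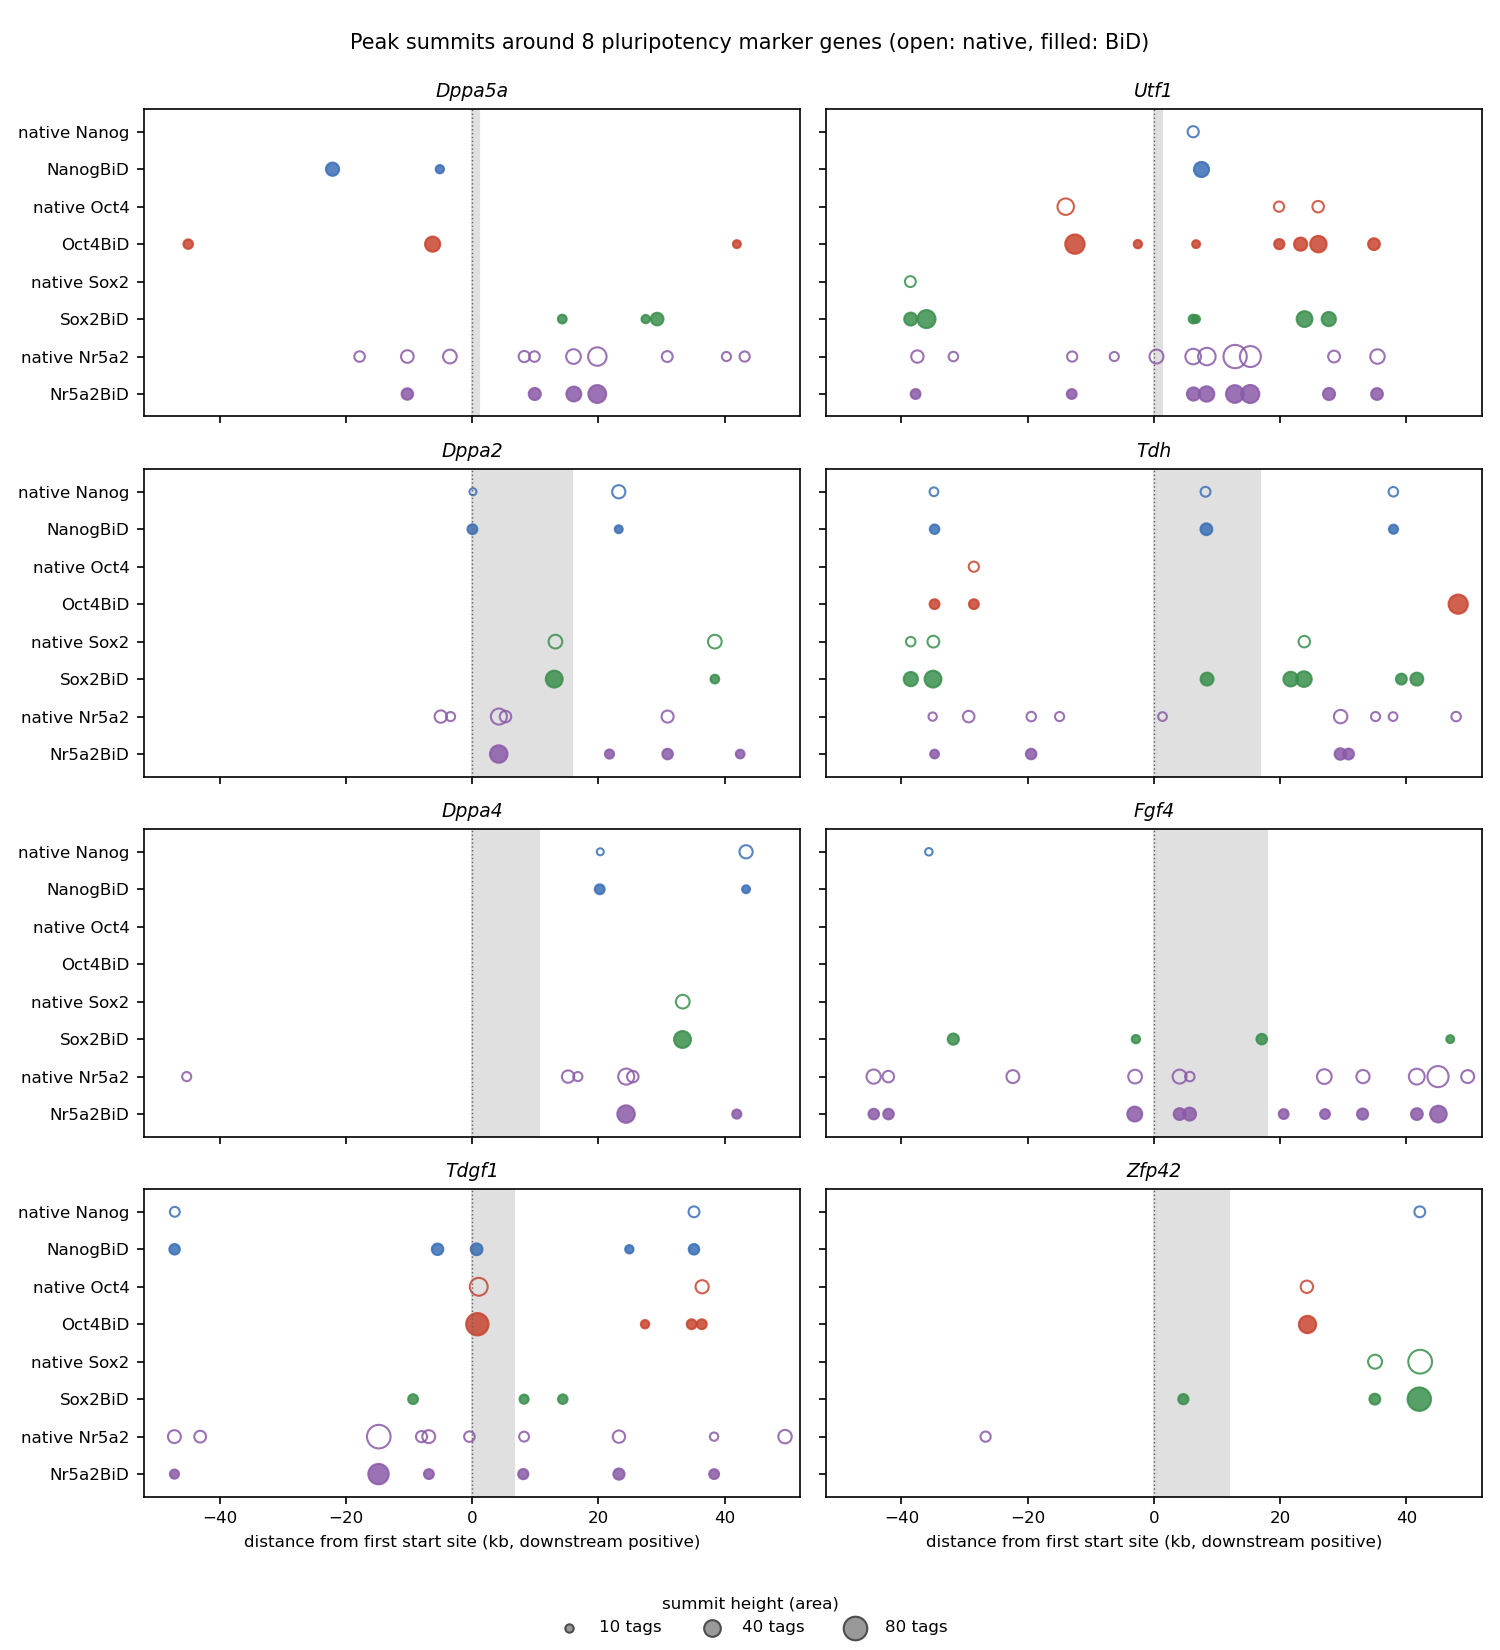
Positions of all summits at the 8 genes, in kb from the first start site (downstream positive), with 1 row per library. Circle area gives the summit height in tags, open circles are native and filled circles BiD libraries, and the grey band is the gene. Most summits lie away from the start sites, the rows of Nr5a2 hold the most circles, and the largest circles lie 42 kb downstream of Zfp42 and 14.8 kb upstream of Tdgf1.

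The number of summits differed between genes and between factors. Over the 8 libraries Utf1 had 38 summits, Tdh 33, Tdgf1 32, Fgf4 26, Dppa5a 22, Dppa2 17, Dppa4 13 and Zfp42 9. All 8 totals were below the median gene, at percentiles between 15.1 and 45.7 of all protein-coding genes. With 1 library per group there is no replicate spread with which to separate neighbours in this order.

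The native Nr5a2 list gave the most summits, 58 at the 8 genes, and was followed by Nr5a2BiD with 36 and Sox2BiD with 28. Oct4BiD had 18, NanogBiD 13, native Nanog 10, native Sox2 8 and native Oct4 7. The lists differ in length, and per 10000 peaks native Nr5a2 had 5.37 and Nr5a2BiD 4.72, against 1.28 to 2.32 in the other libraries. The median over the 8 genes was 9.5 summits in native Nr5a2, where the median over all genes was 8. The mean in that library went the other way, 7.75 over the 8 genes against 8.02 over all genes. In each of the other 7 libraries the median of the 8 genes was the lower one, for example 0.5 against 3 in native Oct4 and 3 against 6 in Sox2BiD.

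**Figure D2:**
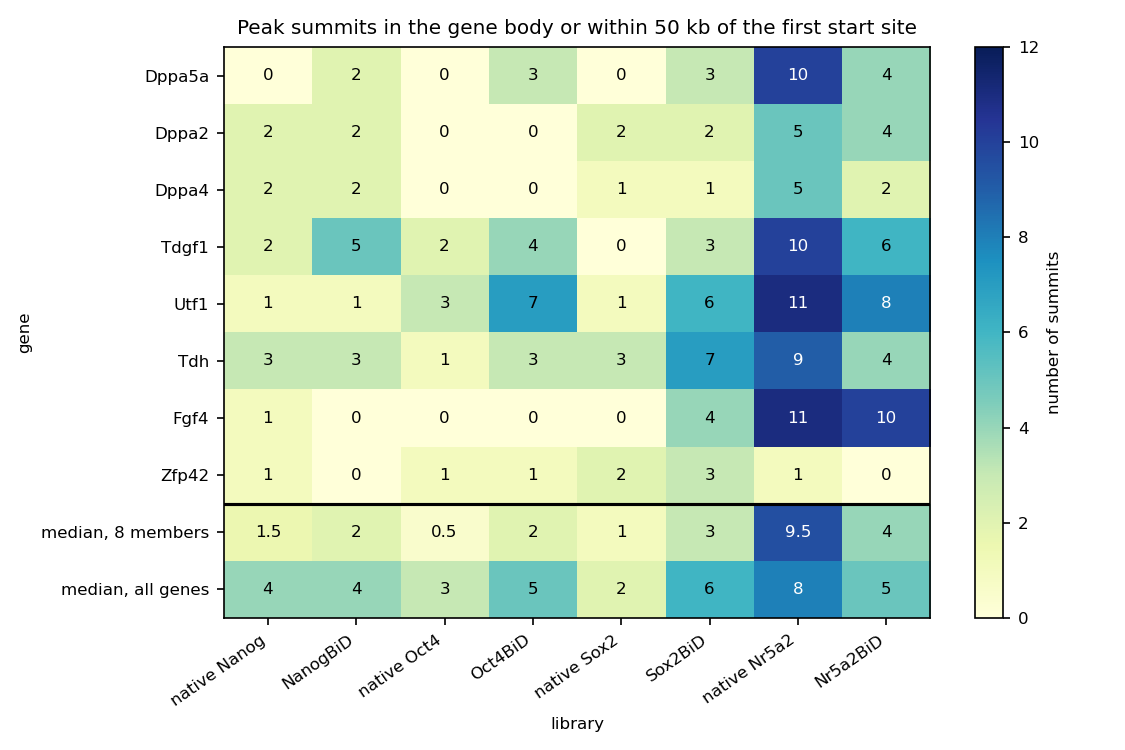
Number of summits for each gene (rows) in each library (columns), with the medians over the 8 genes and over all protein-coding genes in the bottom rows. Native Nr5a2 reaches 9 to 11 summits at 5 of the 8 genes, and the Oct4 columns are at 0 for Dppa2, Dppa4 and Fgf4.

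A gene was counted as having a summit when at least 1 lay in its window. By this count 7 of the 8 genes had a summit in native Nanog, against 84.0% of all genes, and 6 in NanogBiD, against 83.6%. In native Oct4 it was 4 of 8, against 82.1%, and in Oct4BiD 5, against 86.5%. Native Sox2 had a summit at 5 and Sox2BiD at 8, against 77.5% and 88.7%. Native Nr5a2 had one at 8 and Nr5a2BiD at 7, against 87.5% and 86.0%. Only the Sox2BiD and native Nr5a2 lists reached all 8 genes.

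Dppa5a (ENSMUSG00000060461.5, chromosome 9, 78367052 to 78368177, minus strand) encodes a KH-domain RNA-binding protein of pluripotent cells. It had 0 summits in native Nanog, native Oct4 and native Sox2, and 2, 3 and 3 in NanogBiD, Oct4BiD and Sox2BiD. Thus for these 3 factors only the fused form had a summit in this window. The share of all genes with this pattern was not counted. The native Oct4 and native Sox2 lists are the shorter ones, with 54794 and 58162 peaks against 93978 and 120594. Native Nr5a2 had 10 summits and Nr5a2BiD 4. The highest BiD summits of the 3 factors had 25 tags for NanogBiD, 22.1 kb upstream, 33 tags for Oct4BiD, 6.3 kb upstream, and 23 tags for Sox2BiD, 29.3 kb downstream and 129 bp from a start site of Gsta2. Their scores were at percentiles 67.3, 77.3 and 49.6 of the lists. The 3 factors had no common region at Dppa5a. The native Nr5a2 and Nr5a2BiD summits shared a site 19.8 kb downstream, in an intron of Gsta2, with 49 and 46 tags.

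The Oct4BiD summit upstream of Dppa5a is shown because it was 1 of only 2 Oct4 summits at the 8 genes with an octamer-type sequence within 50 bp. The other is the Oct4BiD summit 48.2 kb downstream of the Tdh start. Capitals mark ATGCAAAT or ATGCNAAT on either strand, and the plus strand is printed. The first is chr9:78374411-78374511 and the second chr14:63460812-63460912.

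Dppa5a Oct4BiD summit: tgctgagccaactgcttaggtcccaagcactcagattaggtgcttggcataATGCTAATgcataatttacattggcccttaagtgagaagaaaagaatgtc
Tdh Oct4BiD summit: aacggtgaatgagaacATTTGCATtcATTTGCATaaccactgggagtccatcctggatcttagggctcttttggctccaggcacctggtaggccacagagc

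The Dppa5a stretch holds 1 match almost at the summit, and the Tdh stretch holds the octamer in 2 adjacent copies on the minus strand. The Tdh summit had 53 tags, at percentile 90.9 of the Oct4BiD scores, and lay in an intron of Fam167a. Native Oct4 had no peak in either region.

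Dppa2 (ENSMUSG00000072419.5, chromosome 16, 48303908 to 48319723, plus strand) and Dppa4 (ENSMUSG00000058550.15, chromosome 16, 48283733 to 48294237, plus strand) encode SAP-domain proteins that form a heterodimer on chromatin. Neither Oct4 library had a summit at either gene. At Dppa2, both Nanog libraries had 2 summits and both Sox2 libraries 2, while native Nr5a2 had 5 and Nr5a2BiD 4. Dppa4 had 2 in each Nanog library, 1 in each Sox2 library, 5 in native Nr5a2 and 2 in Nr5a2BiD. A single summit, of 12 tags in native Nr5a2 and 45.3 kb upstream, belonged to Dppa4 alone.

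The start site of Dppa2 carried a Nanog summit in both forms. It had 7 tags in native Nanog, 105 bp downstream, and 14 tags in NanogBiD, 20 bp downstream. The native peak was among the weakest of its list, at percentile 0.24 of the scores, and the NanogBiD peak was at percentile 67.9. A second Nanog site, 23.2 kb downstream of the Dppa2 start, ranked the other way, with 25 tags and percentile 87.5 in native Nanog and 9 tags and percentile 3.63 in NanogBiD. Sox2 summits lay in an intron of Dppa2, 13.0 kb downstream for Sox2BiD with 41 tags and percentile 94.99, and 13.2 kb downstream for native Sox2 with 27 tags and percentile 77.4. The other Sox2 site, 38.4 kb downstream, had 27 tags in native Sox2 and 11 in Sox2BiD. Nr5a2 summits of 37 tags for the native form and 44 tags for the fusion shared an intronic site 4.2 kb downstream.

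The second Sox2 site of Dppa2 is printed below, around the native Sox2 summit at chr16:48342293-48342393 on the plus strand, since it held the most SOX-type matches of the strongest summits. Capitals mark CATTGT or CTTTGT on either strand.

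Dppa2 native Sox2 summit: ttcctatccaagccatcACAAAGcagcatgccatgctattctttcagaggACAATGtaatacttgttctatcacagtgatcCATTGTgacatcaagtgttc

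This stretch has 3 matches, and the middle one lies at the summit itself. It also ranked differently between the forms, at percentile 87.7 of the native Sox2 scores and 10 of the Sox2BiD scores.

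Tdgf1 (ENSMUSG00000032494.12, chromosome 9, 110939603 to 110946158, minus strand) encodes Cripto, the co-receptor through which Nodal signals. NanogBiD had 5 summits here and native Nanog 2. Oct4BiD had 4 and native Oct4 2. Sox2BiD had 3 and native Sox2 had 0, while native Nr5a2 had 10 and Nr5a2BiD 6. An intronic site near the Tdgf1 start had the highest score of the 8 genes in both Oct4 libraries. Native Oct4 had 46 tags there, 1024 bp downstream of the first start site, and Oct4BiD had 72 tags 802 bp downstream. These peaks stood at percentiles 98.6 and 99.4 of their lists. NanogBiD had a summit of 20 tags at 683 bp in the same merged region, where native Nanog had none. The native Sox2, Sox2BiD and Nr5a2BiD lists had no summit within 2 kb of a Tdgf1 start site. Neither Oct4 summit had an octamer-type match within 50 bp, and 51.5% of the bases within 50 bp of the native Oct4 summit were repeat-masked in the reference, against 6.9% around that of Oct4BiD.

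The strongest Nr5a2 peak at the 8 genes also lay in the Tdgf1 window, 14.8 kb upstream for native Nr5a2 with 80 tags and 14.9 kb upstream for Nr5a2BiD with 60 tags. The scores were at percentiles 99.6 and 98.0. The summits were inside Lrrc2, 140 bp and 185 bp from one of its start sites, so the window rule assigns to Tdgf1 a peak that is nearer to another gene. The sequence around the native summit, chr9:110960924-110961024 on the plus strand, holds an NR5A-type match, CAAGGNCA, shown in capitals.

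Tdgf1 native Nr5a2 summit: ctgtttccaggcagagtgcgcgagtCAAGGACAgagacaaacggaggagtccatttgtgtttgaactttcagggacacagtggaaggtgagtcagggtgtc

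Utf1 (ENSMUSG00000047751.9, chromosome 7, 139943789 to 139945112, plus strand) encodes a chromatin-bound coactivator of undifferentiated embryonic cells. It had the most summits of the 8 genes and was represented in all 8 libraries. There was 1 in each Nanog library. Oct4BiD had 7 against 3 for the native form, Sox2BiD 6 against 1, and Nr5a2BiD 8 against 11. Oct4 gave 39 tags in the native form, 14.0 kb upstream, and 54 tags in the fused form, 12.5 kb upstream, both in introns of Kndc1 and in 1 merged region. Their scores were at percentiles 95.8 and 92.7. Of the bases within 50 bp, 52.5% were repeat-masked around the native Oct4 summit and 22.8% around that of Oct4BiD. A native Nr5a2 summit of 28 tags lay in the coding exon of Utf1, 412 bp from the start, and was the only promoter summit of the gene. By tags, the highest Nr5a2 summits of the window were 12.9 kb downstream for the native form, with 78 tags, and 15.3 kb downstream for the fusion, with 47 tags, both in an intron of the non-coding gene Gm16201. Their scores were at percentiles 67.9 and 49.98. By score, the top native Nr5a2 peak lay 35438 bp downstream, with 30 tags and percentile 81.7. The top Nr5a2BiD peak by score lay 6279 bp downstream, with 25 tags and percentile 73.8.

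Tdh (ENSMUSG00000021953.14, chromosome 14, 63492347 to 63509092, minus strand) encodes threonine dehydrogenase, the mitochondrial enzyme of threonine breakdown on which mouse embryonic stem cells depend. Both Nanog libraries had 3 summits in its window. Oct4BiD had 3 against 1 for the native form, Sox2BiD 7 against 3, and Nr5a2BiD 4 against 9. An internal start site of Tdh had summits of both Nanog forms and of Sox2BiD. The distances were 649 bp for native Nanog with 14 tags, 506 bp for NanogBiD with 20 tags and 402 bp for Sox2BiD with 24 tags. The scores were at percentiles 66.1, 68.8 and 81.7. The strongest native Nr5a2 peak of Tdh, 29.6 kb downstream with 26 tags, is shown because it holds 2 NR5A-type matches, 1 on each strand. It is chr14:63479446-63479546, plus strand, and Nr5a2BiD had a summit of 19 tags 29.6 kb downstream in the same region.

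Tdh native Nr5a2 summit: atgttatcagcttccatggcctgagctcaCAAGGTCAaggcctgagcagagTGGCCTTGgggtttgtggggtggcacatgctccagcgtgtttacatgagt

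Fgf4 (ENSMUSG00000050917.5, chromosome 7, 144847367 to 144865243, plus strand) encodes the FGF ligand that embryonic cells make to stimulate themselves. Most of its 26 summits came from Nr5a2, with 11 in native Nr5a2 and 10 in Nr5a2BiD. Sox2BiD had 4, native Nanog 1, and NanogBiD, native Oct4, Oct4BiD and native Sox2 had 0. The highest Nr5a2 summits were 45.0 kb and 45.1 kb downstream, with 64 tags in the native form and 40 in the fusion, about 4 kb from the start of Fgf15. Next to Fgf4 itself, Nr5a2 summits of 27 and 32 tags lay 3.0 kb upstream, and summits of 28 and 20 tags 4.1 kb downstream in an intron. The Sox2BiD summit near the composite site shown above was the only one of Sox2 within the gene.

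Zfp42 (ENSMUSG00000051176.6, chromosome 8, 43295063 to 43306980, minus strand) encodes Rex1, a zinc finger protein used as a marker of naive pluripotency. It had the fewest summits, 1 in native Nanog, 0 in NanogBiD, 1 in each Oct4 library, 2 in native Sox2 and 3 in Sox2BiD, 1 in native Nr5a2 and 0 in Nr5a2BiD. It also held the highest-ranked peak at the 8 genes. This was a Sox2 peak 42.2 kb downstream in native Sox2, with 81 tags, and 42.1 kb downstream in Sox2BiD, with 79 tags, at percentiles 99.88 and 99.82 of the 2 lists. The single native Nanog summit of Zfp42, of 17 tags, was in the same region. Neither Sox2 summit had a CATTGT or CTTTGT within 50 bp. A second distal site, 24.2 kb downstream in native Oct4 and 24.3 kb in Oct4BiD, had 22 and 43 tags. No library had a summit within 2 kb of a Zfp42 start site.

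RefSeq promoter sequences (GRCm38, from before to just after the start) were given for 4 of the 8 genes, Fgf4, Tdgf1, Utf1 and Zfp42. The Zfp42 promoter was the only one of the 4 with any match to the octamer, SOX, NR5A, NANOG (GCCATTA) or AP-1 (TGANTCA) letters. It is printed for this reason, from chr8:43307176-43307238 on the minus strand, with the NR5A-type and octamer matches in capitals.

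Zfp42 promoter: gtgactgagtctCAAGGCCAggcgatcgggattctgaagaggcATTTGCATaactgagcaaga

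Of 32851 promoters of that length, 1.74% held ATGCAAAT on either strand, 3.15% ATGCNAAT, 6.71% CAAGGNCA, 12.6% CATTGT, 18.7% CTTTGT, 1.66% GCCATTA and 7.81% TGANTCA. A sequence match in the Zfp42 promoter was thus not accompanied by a called summit in any of the 8 libraries.

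Whether the factors lay at the promoters of the 8 genes was counted as summits within 2 kb of any annotated start site of the gene. Tdgf1 and Tdh had such a summit in 4 libraries each, Dppa2 in 3 and Utf1 in 1, and Dppa5a, Dppa4, Fgf4 and Zfp42 had none. That is 4 of 8 genes with a promoter summit in at least 1 library, against 75.6% of all genes. Native Nr5a2 had a promoter summit at 4 of the genes, Dppa2, Tdgf1, Utf1 and Tdh, against 63.5% of all genes, and Nr5a2BiD at none, against 53.96%. In all, 12 of the 178 summits, or 6.74% (exact 95% interval 3.53 to 11.5), were at a promoter of one of the 8 genes, and 33 more were within 2 kb of the start of another protein-coding gene. By annotation 84 summits were intergenic, 70 intronic, 15 in untranslated exons, 6 in coding exons and 3 in non-coding exons. The interval covers counting error only.

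Summit height and score depend on sequencing depth and are not scaled to it, so peaks were ranked within their own list. Of the 178 peaks, 7 were in the top 5% of their list by score, or 3.93%. They were 2 in native Oct4 (Tdgf1 and Utf1) and 1 each in Oct4BiD (Tdgf1), native Sox2 and Sox2BiD (Zfp42) and native Nr5a2 and Nr5a2BiD (Tdgf1). The Nanog lists had none. Around the 2 native Oct4 summits, 51.5% (Tdgf1) and 52.5% (Utf1) of the bases within 50 bp were repeat-masked. Most such bases were masked at 17.2% of all native Oct4 summits. The median percentile of the peaks ran from 30.3 in Nr5a2BiD and 41.6 in native Nr5a2 to 58.6 in native Sox2 and 64.2 in native Oct4. The 2 Nr5a2 lists thus had the most summits at these genes and the lowest median ranks.

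**Figure D3:**
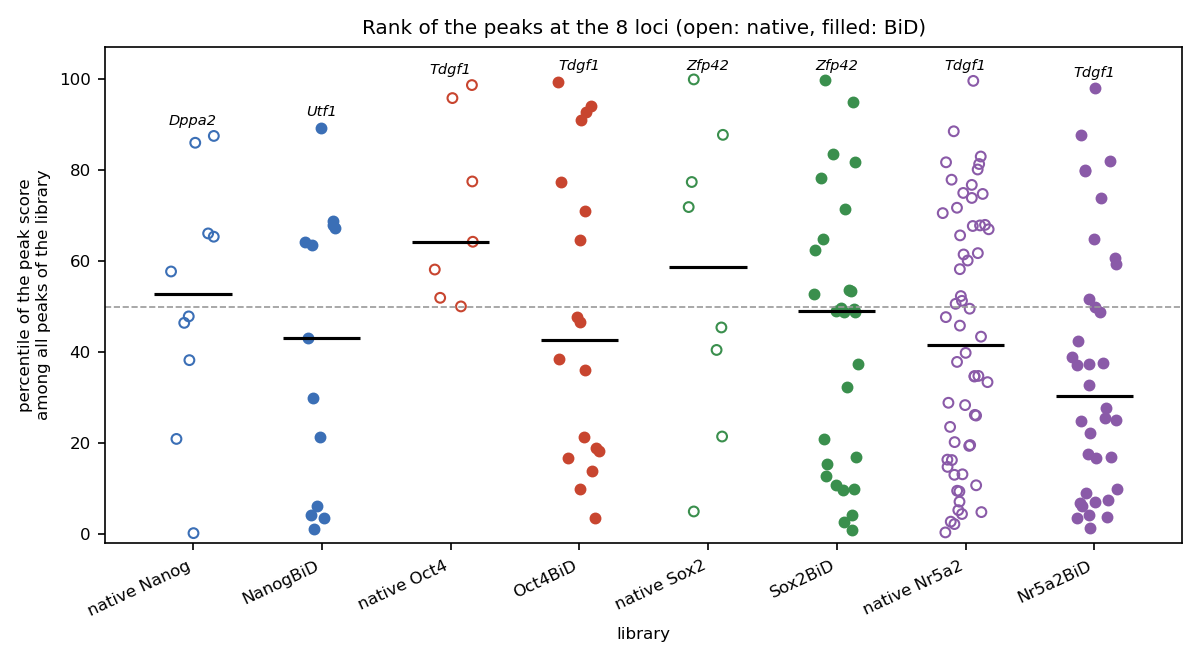
Percentile of each peak's score among all peaks of its library (y axis) by library (x axis). Open circles are native, filled circles BiD, the black bar is the median, the dashed line is percentile 50, and the gene of the highest peak is named. Tdgf1 has the top peak in both Oct4 and both Nr5a2 lists and Zfp42 in both Sox2 lists.

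Recurrence was measured by merging peaks of the 8 lists that overlapped by at least 1 bp. This gave 101 regions at the 8 genes, of which 50 had a peak in 1 library, 36 in 2, 10 in 3, 3 in 4, 1 in 6 and 1 in 7. No region had a peak in all 8. In the genome 46.05% of regions had a peak in 1 library, near the 49.5% at the 8 genes, and 1.49% in all 8. Of the 36 regions in 2 libraries, 34 were shared by the native and fused form of the same factor. By factor, 84 regions had peaks of 1 factor, 15 of 2 and 2 of 4. Neither the sharing between forms nor the numbers by factor were counted over all regions of the genome. Regions in at least 4 libraries made up 4.95% at the 8 genes and 14.95% of all 306426 regions in the genome.

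The most recurrent region, in all libraries but native Oct4, lay about 35 kb upstream of Tdh at the start of Mtmr9, with summits 39 to 164 bp from that start and heights from 10 tags in native Nr5a2 to 41 in Sox2BiD. The region in 6 libraries lay 6.2 to 7.5 kb downstream of the Utf1 start. Its tags were 18 in native Nanog, 33 in NanogBiD, 9 in Oct4BiD, 11 and 9 at a pair of Sox2BiD summits, 35 in native Nr5a2 and 25 in Nr5a2BiD, and native Oct4 and native Sox2 had no peak there. The merged region thus held peaks of all 4 fused factors and of native Nanog and native Nr5a2, but its summits spanned 1275 bp and need not be a single site. The NanogBiD summit was 7492 bp from the start and the others 6217 to 6694 bp. The Oct4BiD peak was at percentile 21.25 of its list and the Sox2BiD peaks at 16.96 and 4.14. The 3 regions in 4 libraries each joined both forms of 2 factors. They were a Sox2 and Nr5a2 region 37.5 to 38.6 kb upstream of Utf1, the Oct4 and Nr5a2 region 12.5 to 14.0 kb upstream of Utf1, and a Nanog and Nr5a2 region 47.1 to 47.2 kb upstream of Tdgf1.

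Motif matches were counted within 50 bp of the summits, on either strand. Sox2 summits at the 8 genes had CATTGT or CTTTGT in 4 of 8 cases in native Sox2 and in 11 of 28 in Sox2BiD, against 40.02% and 47.1% of all summits of those lists. Nr5a2 summits had CAAGGNCA in 16 of 58 cases in native Nr5a2 and in 8 of 36 in Nr5a2BiD, against 24.6% and 19.9%. Oct4 summits had ATGCAAAT or ATGCNAAT in 0 of 7 cases in native Oct4 and in 2 of 18 in Oct4BiD, against 6.16% and 13.6%. Nanog summits had GCCATTA in 0 of 10 and 0 of 13 cases, against 1.70% and 2.55%. The numbers at the 8 genes are too small to separate these shares from those of all summits.

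The comparison of fused and native factors asked whether BiD changed how often a factor was found at these genes. For Sox2 the summed summits were 8 in the native list and 28 in the BiD list, a log2 ratio of 1.81 (exact 95% interval 0.64 to 3.15). For Oct4 they were 7 and 18, a log2 ratio of 1.36 (0.04 to 2.86). For Nanog they were 10 and 13, a log2 ratio of 0.38 (-0.93 to 1.73). For Nr5a2 the fusion had fewer, 36 against 58, a log2 ratio of -0.69 (-1.33 to -0.06). The lists as a whole differed in the same directions, with log2 ratios of 1.05 for Sox2, 0.78 for Oct4, 0.04 for Nanog and -0.50 for Nr5a2. Each of these lies inside the interval of the 8 genes. When the 20000 top peaks of each list were kept, the log2 ratio of the 8 genes turned to -1 for Sox2, over 6 summits, and to 0.58 for Nr5a2, over 10. For Nanog it was then -1, over 3 summits, and for Oct4 0, over 8, and the mean over the factors was -0.35. Per 10000 peaks the log2 ratios of the 8 genes were 0.76, 0.58, 0.33 and -0.18. The log2 ratios averaged 0.72 ± 1.11 (SD, n = 4 factors), or 0.37 ± 0.41 per 10000 peaks. The intervals cover counting error over summits and not the spread between cultures, and they take summits of a locus as independent.

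**Figure D4:**
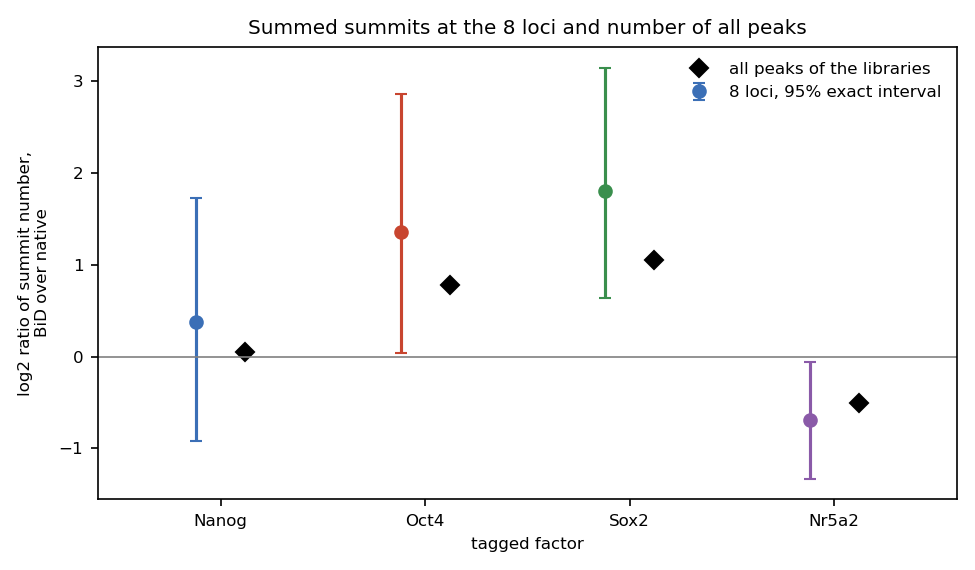
Log2 ratio of summit number, BiD over native, for each factor. Circles with bars are the summed summits at the 8 genes with exact 95% intervals, and diamonds are all peaks of the libraries. Sox2 and Oct4 lie above 0, Nr5a2 lies below 0 at -0.69, and every diamond lies inside the bar beside it. With the 20000 top peaks of each list the ratios are -1 for Sox2 and for Nanog, 0 for Oct4 and 0.58 for Nr5a2. No factor then keeps its side.

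By gene, Sox2BiD had more summits than native Sox2 at 6 of the 8 genes and fewer at none, against 83.6% of all genes with more and 1.86% with fewer. Oct4BiD had more than native Oct4 at 4 and fewer at none, against 74.6% and 5.67%. NanogBiD had more than native Nanog at 2, Dppa5a and Tdgf1, and fewer at 2, Fgf4 and Zfp42, against 44.6% and 19.7%. Nr5a2BiD had fewer than native Nr5a2 at all 8 genes, against 74.0% of all genes with fewer and 4.75% with more. The differences of single genes were tested over the 4 factors with an exact sign-flip permutation test, two-sided, which cannot give a p under 1 in 8, so that no gene could pass 0.05. Utf1 had the smallest p of the 8, 0.5, with 1.5 ± 3.70 more summits in BiD (SD, n = 4 factors, permutation test). The other 7 had p from 0.625 to 1 in the same permutation test, and all 8 had an adjusted p of 1 over the 21938 genes. Of all genes 274 reached the smallest p, and 0 had an unadjusted p under 0.05.

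Peaks of the forms overlapped as follows. All 7 native Oct4 peaks and all 8 native Sox2 peaks at the 8 genes overlapped a peak of the fused form, against 73.1% and 86.3% of all peaks of those lists. Of the native Nanog peaks 8 of 10 did, against 72.7%, and of the native Nr5a2 peaks 32 of 58, against 60.7%. In the other direction 7 of 18 Oct4BiD, 8 of 28 Sox2BiD, 8 of 13 NanogBiD and 32 of 36 Nr5a2BiD peaks overlapped one of the native form, against 42.4%, 41.4%, 70.1% and 86.0%. Overlapping peaks need not share a summit.

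A list of 30 other pluripotency genes, such as Nanog, Esrrb, Sall4 and Tfcp2l1, and a list of 25 fibroblast genes, such as collagens and Twist1, were described in the same way. The median pluripotency gene of that list had 2 summits in native Nanog, 3 in NanogBiD, 3 in native Oct4, 4.5 in Oct4BiD, 1 in native Sox2, 4 in Sox2BiD, 7.5 in native Nr5a2 and 4.5 in Nr5a2BiD. The median fibroblast gene had 7, 7, 5, 8, 5, 9, 9 and 5 in the same order. By these medians, the 8 genes lay at or below the other pluripotency genes in all libraries but native Nr5a2. They lay below the fibroblast genes in all libraries but native Nr5a2. Means of the lists were not compared. The fused form had more summits at 16, 25, 25 and 0 of the 30 pluripotency genes for Nanog, Oct4, Sox2 and Nr5a2. It had more at 9, 17, 25 and 1 of the 25 fibroblast genes. The shares of all genes with more were 44.6%, 74.6%, 83.6% and 4.75% in the same order. Fewer summits were found at 6, 2, 2 and 28 of the pluripotency genes and at 7, 0, 0 and 23 of the fibroblast genes. The shares of all genes with fewer were 19.7%, 5.67%, 1.86% and 74.0%.

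The gene whose 8 summit numbers were closest to those of each marker was found by the sum of absolute differences over the 8 libraries. For Tdgf1 it was Celf3, at a sum of 1, for Zfp42 Spopl, at 1, for Tdh Yae1d1, at 2, for Dppa5a Rdh1, at 3, for Dppa2 Antxrl, at 3, for Dppa4 Dhrs2, at 3, for Utf1 Sox10, at 5, and for Fgf4 D730001G18Rik, at 6. For 5 of these, other genes were equally close.

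The whole series gives the limits of these values. The lists held between 54794 peaks in native Oct4 and 120594 in Sox2BiD, the lowest summit called had 6 to 10 tags, and the median summit had 16 to 22 tags. The lowest score was 50 in every list. No control library is named in the methods, so peaks of open chromatin cannot be told apart from peaks of binding. Per the reporting summary, the fused-form libraries of Oct4 and Sox2 were sequenced less deeply than the native ones, and those of Nanog and Nr5a2 more deeply. For Oct4, Sox2 and Nr5a2 the deeper library of the pair was thus the one with fewer peaks, and peak numbers were not adjusted for depth.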

How the data were processed

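The 8 deposited peak lists and 8 summit lists were used, 1 of each per library. Per the study's methods and the submitters' processing notes, reads were trimmed with Trim Galore 0.6.4, mapped to mm10 with Bowtie2 2.4.5 and filtered with SAMtools 1.16.1 to remove repetitive, poorly mapped and mitochondrial reads. Peaks were called with MACS 1.4.2. The methods state that replicates were merged and the reporting summary that the CUT&Tag was done a single time, so each list was taken as 1 unreplicated library. Each peak has a deposited score, a scaled −log10 of its MACS p-value, as the authors' caller wrote it. Each summit has a deposited signal, its height in whole tags, which the authors did not scale to depth. Read totals are in the study's reporting summary, not in the lists, and were not used in any calculation. Repeated sequence was not left without peaks. Most bases within 50 bp were repeat-masked at 4.16% (native Nanog) to 17.2% (native Oct4) of all summits of a list.

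Summits were assigned to GENCODE M21 genes as described, with a promoter of 2 kb on either side of any start site. Intervals are exact (Clopper-Pearson) at 95% and cover counting error. Single genes were tested by exact sign flips of the 4 differences between forms (a permutation test), with Benjamini-Hochberg adjustment over 21938 genes; the counting, merging and test were tested on simulated data. No count model was used because the lists hold no read counts per gene. The members and gene lists were chosen with earlier results of these data known. The named genes are the 8 members, the gene closest to each, the regions in at least 4 libraries and the highest peaks. Alternatives were other windows, peak filters, promoter widths, motif distances and leaving out each factor. Python 3.11.15, NumPy 2.4.6, pandas 2.3.3, SciPy 1.17.1 and matplotlib 3.10.9 were used.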

Additional observations from a re-analysis of the deposited data

Results flagged for a closer look

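The BiD contrast went opposite ways in different factors, and the difference between factors was not tested because each factor has 1 library per form. The log2 ratio of summed summits at the 8 genes was 0.38 for Nanog, 1.36 for Oct4 and 1.81 for Sox2, and -0.69 for Nr5a2. The numbers of all peaks in the lists differed in the same directions, and for Oct4, Sox2 and Nr5a2 the more deeply sequenced library of the pair, per the reporting summary, had the fewer peaks. At 6 of the genes the most negative and the most positive difference over the factors, BiD minus native, had opposite signs, also without a test. The share of all genes with opposite signs was not counted. Of all genes, 74.0% had fewer summits in Nr5a2BiD than in native Nr5a2 and 83.6% more in Sox2BiD than in native Sox2. The differences in summits were -6 for Nr5a2 and 3 for both Oct4 and Sox2 at Dppa5a. At Tdgf1 they were -4 for Nr5a2 and 3 for both Nanog and Sox2. They were -3 for Nr5a2 and 5 for Sox2 at Utf1, and -5 for Nr5a2 and 4 for Sox2 at Tdh. At Fgf4 they were -1 for both Nanog and Nr5a2 and 4 for Sox2. At Zfp42 they were -1 for both Nanog and Nr5a2 and 1 for Sox2.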

How the results depend on the processing

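Of 81 recomputed summary values, 64 stayed within the limits set for the reported value. Some of the 64 could not move, so the tally does not measure stability. The smallest possible p fixed the number of genes with an adjusted p under 0.05 at 0. A filter on peaks cannot raise the 0 regions found in all 8 libraries. The 20000 top peaks of each list leave 3 to 10 summits per factor. With them the log2 ratio of summed summits was -1 for Nanog and for Sox2, 0 for Oct4 and 0.58 for Nr5a2. No factor kept the direction of its reported value. The cause was not tested. The log2 ratio was 2 for Nanog with summits of at least 20 tags and 3.46 for Sox2 in a window of 20 kb. The mean over the factors, reported as 0.72, ran from 0.35 to 1.18 when each factor was left out and was -0.35 with the top peaks. The -0.35 was among the values within the limits, since the limit for the mean was its SD over factors of 1.11. The 101 merged regions became 61 with scores of at least 100, 17 with the top peaks, 43 within 20 kb and 191 within 100 kb, and the 5 regions in at least 4 libraries became 2, 0, 2 and 8, or 3 when summits were joined within 100 bp; fewer or more peaks enter by construction. The share of Sox2 summits with a motif was 61.1% within 100 bp against 41.7% within 50 bp, and that of Nr5a2 summits 12.8% within 25 bp against 25.5%. By gene, the mean difference over factors turned in 8 of 48 alternatives. It was 0.25 for Tdh and became -0.25 within 20 kb, -0.030 per 10000 peaks, -0.33 without Oct4 and -1 without Sox2. It was 0.5 for Dppa5a and became -0.33 without Oct4 or without Sox2, 0.5 for Fgf4 and became -0.67 without Sox2, and -0.25 for Zfp42 and became 0.25 within 20 kb. Over the fits that left out a factor, Dppa5a ran from -0.33 to 2.67, Tdh from -1 to 2 and Fgf4 from -0.67 to 1. In them 0 genes had an adjusted p under 0.05 and 0 an unadjusted one, since no p under 0.25 is possible. No paired analysis was possible because each group has 1 library and the titles carry no replicate numbers. The only pairing was of the forms by factor, in the sign-flip test.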
